A study of Mus musculus with 3 samples.

Results

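Glycolysis and fructose breakdown in mouse liver were followed through 8 enzyme and regulator genes picked by name: the ketohexokinase gene Khk, the pyruvate kinase genes Pklr and Pkm, the hexokinase genes Hk1 and Hk2, the regulator gene Gckr, the phosphofructokinase gene Pfkl and the aldolase gene Aldoa. All 8 were read by the array, by 17 of its 45101 probe sets (groups of short probes that together report 1 transcript), and they are 8 of the 18193 genes with a probe set annotated to a single gene. The brightest probe set by its mean over the arrays stood for each gene, and the others are given beside it. The members were not chosen by a threshold on measured values. They and the gene lists below were chosen with earlier results of these data known, so their shares beside all fitted genes are a description.

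The Cre group was 1 liver from a 3-month-old mouse given MUP-iCre-AAV8, an adeno-associated virus that carries the iCre recombinase, which removes DNA between loxP sites. The control group was 2 livers from mice of the same age given MUP-EGFP-AAV8, which carries a green fluorescent protein in its place. Each mouse was of mixed strain and received a single intraperitoneal injection of 400 microL, and livers were taken 1 week later. The series design describes floxed Hnf4a mice in both groups, but the sample labels call the Cre liver HNF4alpha knockout and the control livers wild type, so a difference in genotype before injection and a difference in virus cannot be told apart. The labels do not say what MUP stands for in the virus names. Values are log2 expression, so 1 unit is a 2-fold difference, and a height on this scale can be set against the same probe set in another liver but not against another probe set.

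In liver, glucose and fructose enter metabolism by separate kinases. The protein of Gckr restrains glucose phosphorylation in hepatocytes and is itself relieved when fructose 1-phosphate rises, while most other tissues phosphorylate glucose with the hexokinases of Hk1 and Hk2. Fructose is phosphorylated by ketohexokinase, cleaved by aldolase, and joins glycolysis through triokinase, bypassing phosphofructokinase. The last step of glycolysis is run in adult hepatocytes by the pyruvate kinase of Pklr, whereas fetal liver, muscle and most dividing cells use that of Pkm. Aldoa likewise encodes the aldolase of muscle and of fetal liver. Transcription of Pklr in hepatocytes is known, mainly from the rat gene, to use a site for HNF4alpha next to a carbohydrate response element read by ChREBP, the product of Mlxipl.

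The promoters of the 3 members that passed the test are shown because the targeted protein is a transcription factor. RefSeq promoter windows (GRCm38.p6) matched all 8 genes, with 13 annotated starts in all, and the 250 bases before a start are printed 5′ to 3′ on the strand of the gene. For Pklr, which has 2 annotated starts, the downstream one is shown (chr3:89136373-89136622, plus strand). Capitals mark, in order, the inverted repeat of the carbohydrate response element, a match on the other strand to the HNF4 sequence CANAGTCCA, and TATAAA. For Khk (chr5:30921309-30921558, plus strand) capitals mark the E-box CACGTG, and for Hk2 (chr6:82774455-82774704, minus strand) they mark ACGTG, the core of a hypoxia response element, found there on the other strand as CACGT.
Pklr: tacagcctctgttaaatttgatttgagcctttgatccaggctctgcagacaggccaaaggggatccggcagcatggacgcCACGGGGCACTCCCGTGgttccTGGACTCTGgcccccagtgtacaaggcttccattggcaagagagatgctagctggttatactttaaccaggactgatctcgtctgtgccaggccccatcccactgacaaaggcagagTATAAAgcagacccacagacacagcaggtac
Khk: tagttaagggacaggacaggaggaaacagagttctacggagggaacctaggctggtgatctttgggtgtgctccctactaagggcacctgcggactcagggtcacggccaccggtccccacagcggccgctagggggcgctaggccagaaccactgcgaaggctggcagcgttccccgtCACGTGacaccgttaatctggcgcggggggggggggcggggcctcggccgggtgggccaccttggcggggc
Hk2: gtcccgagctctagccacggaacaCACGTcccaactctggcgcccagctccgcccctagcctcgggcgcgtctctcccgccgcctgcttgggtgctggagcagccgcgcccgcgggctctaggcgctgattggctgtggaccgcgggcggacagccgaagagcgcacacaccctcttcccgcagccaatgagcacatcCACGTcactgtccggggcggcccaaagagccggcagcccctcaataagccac
Both strands of these 250 bases were searched at all starts in the table. The HNF4 sequence lay 148 to 140 bases before the Pklr start, and at no start of the other 7 members. It was found at 1.34% of 32851 starts. N in this sequence stands for any base, and Pklr has G there. The HNF4 site of Pklr was known before the search, so this share is a description. Whether the HNF4 match is particular to Pklr was not tested. The carbohydrate response element lay 170 to 154 bases before the same start and was found at 1 start in the table. Its letters were taken from the known Pklr element, so that count carries no information. CACGTG was found at 6.02% of starts, ACGTG, which every CACGTG contains, at 16.6%, and TATAAA at 12.4%. ACGTG also lay before starts of Aldoa, Pkm and Khk. These are matches of letters, and no binding was measured.

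In the Cre liver, Khk fell 3.01-fold and Pklr 2.63-fold, Hk2 rose 1.98-fold, and the other 5 members did not pass the test. The size of the Hk2 rise is uncertain, since both of its control values lay under the filter on dim genes, and its call was lost in 3 of 8 other settings. A gene is said to have risen or fallen where the limma adjusted p for Cre against control virus was under 0.05 over 12735 fitted genes, and differences are Cre minus the control mean, with the standard error (SE) of that fit. All 8 members passed the filter on dim genes, a mean of at least 3.77, the 30th percentile. The 1 rise and 2 falls among 8 members stand beside rises in 6.71% and falls in 5.21% of all fitted genes. By size alone, Khk and Pklr were at least 1 log2 unit below both control livers, as were 3.72% of fitted genes, and none of the 8 was that far above both, against 3.67% of fitted genes. In bulk liver RNA, fewer cells of a type and less RNA per cell cannot be told apart.

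**Figure D1:**
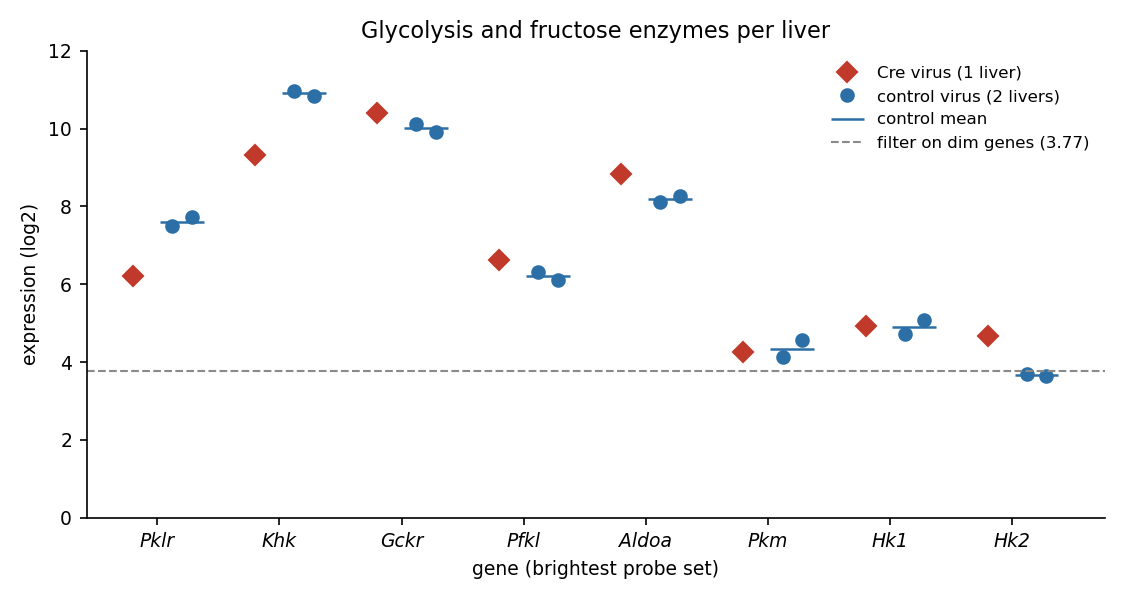
Log2 expression of the brightest probe set of each of the 8 genes (horizontal axis) in the Cre liver (red diamonds) and the 2 control livers (blue circles, with their mean as a line); the dashed line is the filter value of 3.77. The Cre value lies below both controls for Pklr and Khk, above both for Gckr, Pfkl, Aldoa and Hk2, and between them for Pkm and Hk1, and the control values of Hk2 lie under the filter line.

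As a check on the labels, the 4 probe sets of Hnf4a all read lower under Cre virus than in either control. Its brightest probe set was at 11.38 in the Cre liver, against 11.91 and 11.96 in the control livers (-0.55 ± 0.10 SE, limma adjusted p = 0.0401 at gene level; 5 of 9 other settings passed, with adjusted p up to 0.184). The dimmer probe sets of Hnf4a gave -0.67, -1.18 and -0.61. In the fit over all probe sets the one at -1.18 passed (limma adjusted p = 0.0323) and the brightest did not (0.0598). Whether these probes lie in the floxed part was not analysed here. Over all probe sets Pearson's r was 0.970 and 0.972 for the Cre array against controls 1 and 2, and 0.993 for the controls against each other, a description across probe sets, which are not independent. Of 8 hepatocyte markers measured, Apoa2 and Tat fell and 6 did not pass, and albumin was at 14.62 in the Cre liver, against 14.75 and 14.72 in the control livers.

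Ketohexokinase, the first enzyme of fructose breakdown, showed the largest fall of the 8 genes. Khk was at 9.32 in the Cre liver, against 10.98 and 10.85 in the control livers. The control livers differed by 0.13, and the Cre liver lay at least 1.52 log2 units below each of them. The fall was 3.01-fold (-1.59 ± 0.12 SE, limma adjusted p = 0.00681), and 2.43% of fitted genes had a lower difference. A single probe set reads this gene, so no second reading could be set beside it. It passed in all 9 other settings with a test, with adjusted p between 0.000543 and 0.0182.

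Most of the other fructose genes measured fell as well. Of 4 in a list of fructose and polyol genes, which does not include Khk, 3 fell and 1 did not pass, against 5.21% of fitted genes that fell, and the list median was -1.86 beside a median of 0.09 over all fitted genes. Tkfc, the triokinase gene whose enzyme phosphorylates glyceraldehyde, was at 4.61 in the Cre liver, against 7.08 and 7.02 in the control livers, a 5.43-fold fall (-2.44 ± 0.15 SE, adjusted p = 0.00423). Glyctk, the glycerate kinase gene, was at 5.01 in the Cre liver, against 7.97 and 7.89 in the control livers (-2.92 ± 0.15 SE, adjusted p = 0.00267), and its dimmer probe set gave -1.20. Slc2a5, which encodes the fructose transporter GLUT5, was at 4.40 in the Cre liver, against 5.86 and 5.48 in the control livers (-1.27 ± 0.23 SE, adjusted p = 0.0434; 6 of 9 other settings passed, with adjusted p up to 0.0758). For these genes the Cre liver thus lay outside the control range by more than the controls differed. Tkfc and Slc2a5 are each read by a single probe set, so no second reading could be set beside them. Slc2a8, another hexose transporter gene, was at -0.06 ± 0.14 SE and did not pass.

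Pyruvate kinase of the liver type fell, and its counterpart of fetal liver and muscle did not pass. The brightest Pklr probe set was at 6.22 in the Cre liver, against 7.49 and 7.73 in the control livers, a 2.63-fold fall (-1.39 ± 0.17 SE, limma adjusted p = 0.0197). The second was at 5.11 in the Cre liver, against 6.25 and 6.22 in the control livers, a 2.19-fold fall (-1.13 ± 0.16 SE, limma adjusted p = 0.0426 over 24461 probe sets). The third was at 4.67 in the Cre liver, against 5.03 and 4.91 in the control livers, and did not pass (-0.31 ± 0.17 SE, adjusted p = 0.344). All 3 readings were thus below both control livers, but their sizes differed, and their mean gave -0.94. Pklr passed in all 9 other settings with a test, with adjusted p up to 0.0369. The gene also makes a red cell form of the enzyme. Of 4 red blood cell markers measured, Alas2, which also serves heme synthesis in red cell precursors, fell (-3.27 ± 0.19 SE, adjusted p = 0.00339), and Hba-a1, Slc4a1 and Epb42 were under the filter value on every array. The summed linear level of these 4 was 68.4 in the Cre liver, against 414 and 511 in the control livers, and Alas2 alone made up most of it in each liver. The part of red cells in the fall of Pklr was not tested.

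Pkm was at 4.26 in the Cre liver, against 4.13 and 4.56 in the control livers. The Cre liver lay between the controls, which differed by 0.43, and the difference did not pass (-0.08 ± 0.25 SE, limma adjusted p = 0.85) and turned to 0.13 against control 1 alone. These values are close to the median of all probe sets on the Cre array, 4.16, where small changes are compressed. The single Pkm probe set was not assigned here to a splice form. Of 4 measured genes for factors that steer splicing of the Pkm transcript, 0 passed limma's test and 1 had an unadjusted p under 0.05. Ptbp1 was at -0.01 ± 0.13 SE (0.05 against control 1 alone), although its dimmer probe sets gave -0.77 and -0.57. Hnrnpa1, Hnrnpa2b1 and Srsf3 were at 0.18, 0.36 and 0.25.

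The difference of Pklr minus that of Pkm was -1.32 log2 units, or -1.41 against control 1 and -1.22 against control 2, equal to a 2.49-fold lower Pklr to Pkm ratio within the Cre liver than within the controls. This ratio was not tested, since 1 array against 2 allows an exact two-sided permutation p no smaller than 0.333. With each gene as the mean of its probe sets it was -0.86. The pair of phosphofructokinase genes Pfkl and Pfkm differed by -0.44, Pfkl and Pfkp by -0.01 (0.15 against control 2 alone), and the glucose transporter genes Slc2a2 and Slc2a1 by -0.06 (0.05 after quantile normalization).

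**Figure D2:**
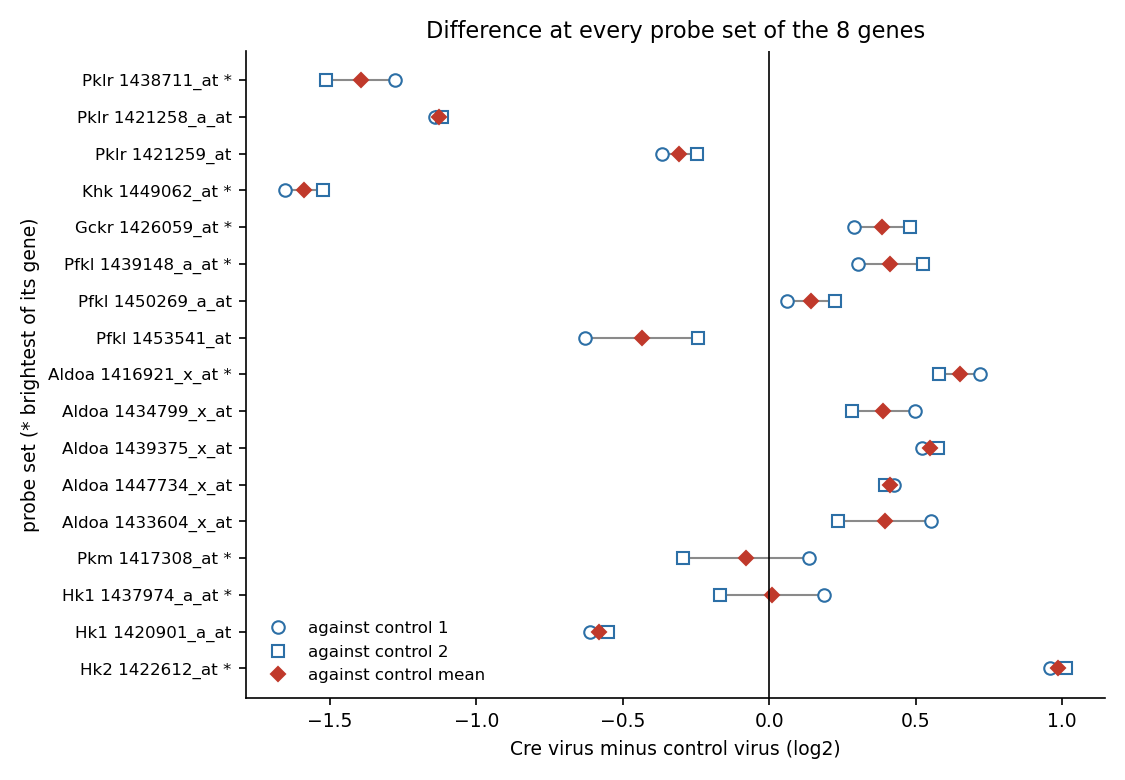
Cre minus control virus on the log2 scale (horizontal axis) at each of the 17 probe sets, against control 1 (circles), control 2 (squares) and their mean (red diamonds); an asterisk marks the brightest probe set of a gene. The 3 Pklr readings lie at -1.39, -1.13 and -0.31, the 5 Aldoa readings all lie above 0, and the second Hk1 reading and the third Pfkl reading lie below 0, apart from the others of their gene.

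Among the hexokinases of other tissues, Hk2 rose and Hk1 did not pass. Hk2 was at 4.66 in the Cre liver, against 3.70 and 3.65 in the control livers, a 1.98-fold rise (0.99 ± 0.18 SE, limma adjusted p = 0.0434), and 4.95% of fitted genes had a higher difference. The controls differed by 0.05, but both were below the filter value of 3.77, so Hk2 entered the fit through its Cre value and the size of its rise is uncertain. Its call was lost with no filter (adjusted p = 0.0671), with every probe set tested alone (0.0626) and without probe sets whose suffix (_s_at, _x_at or _a_at) marks them as shared between transcripts (0.0543). Over its 8 other settings with a test, adjusted p ranged from 0.0217 to 0.0671.

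Hk1 was at 4.92 in the Cre liver, against 4.73 and 5.09 in the control livers. The Cre liver lay between the controls (0.01 ± 0.22 SE, limma adjusted p = 0.979). Its dimmer probe set was at 2.99 in the Cre liver, against 3.60 and 3.54 in the control livers, and its mean of 3.38 fell just short of the filter on probe sets, so it had no test. The 2 readings thus differ, and their mean gave -0.29 (adjusted p = 0.288). A probe set that lists Hk1 among several genes was not used.

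Gckr, whose product restrains glucose phosphorylation, was at 10.40 in the Cre liver, against 10.12 and 9.92 in the control livers. The Cre liver was above both, by 0.29 and 0.48, while the controls differed by 0.19. The difference did not pass (0.39 ± 0.14 SE, limma adjusted p = 0.15), nor did it in 9 other settings (lowest adjusted p = 0.121), and 24.4% of fitted genes had a higher one. Slc2a2, which encodes the liver glucose transporter GLUT2, was at 11.39 in the Cre liver, against 11.83 and 11.81 in the control livers (-0.43 ± 0.09 SE, adjusted p = 0.0644; 0.0271 after quantile normalization). Slc2a1, the transporter of most other tissues, was at -0.37 ± 0.14 SE and did not pass.

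Phosphofructokinase, the committed step of glycolysis, was read through Pfkl, its liver subunit. Pfkl was at 6.62 in the Cre liver, against 6.32 and 6.10 in the control livers. It was above both controls but did not pass (0.41 ± 0.18 SE, limma adjusted p = 0.205). Its second probe set gave 0.14, and the third, at 3.05 in the Cre liver, against 3.68 and 3.29 in the control livers, was under the filter, so the mean of the 3 was 0.04. Pfkm, the muscle subunit, was at 7.59 in the Cre liver, against 6.71 and 6.75 in the control livers, and rose 1.81-fold (0.86 ± 0.14 SE, adjusted p = 0.0363; up to 0.0592 over 9 other settings). The platelet subunit gene Pfkp was at 0.42 ± 0.17 SE and did not pass, and its mean over 3 probe sets was -0.01.

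Aldoa was at 8.84 in the Cre liver, against 8.12 and 8.26 in the control livers. The Cre liver was above both by at least 0.58, more than the 0.14 between controls, but the difference missed the threshold (1.57-fold, 0.65 ± 0.14 SE, limma adjusted p = 0.0600). The other 4 probe sets of Aldoa gave 0.39 to 0.55, each with the Cre liver above both controls, and none of the 5 passed over all probe sets, with adjusted p from 0.0858 to 0.29. All 5 carry the suffix _x_at, which marks probes that can match other transcripts, so they are not independent readings. Aldoa passed after quantile normalization (adjusted p = 0.0333), after median centring (0.0486) and with robust moderation (0.0491), and over 8 other settings adjusted p reached 0.0995. Aldoc, the brain-type aldolase, was at 6.61 in the Cre liver, against 7.79 and 7.94 in the control livers, and fell (-1.25 ± 0.15 SE, adjusted p = 0.0188).

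**Figure D3:**
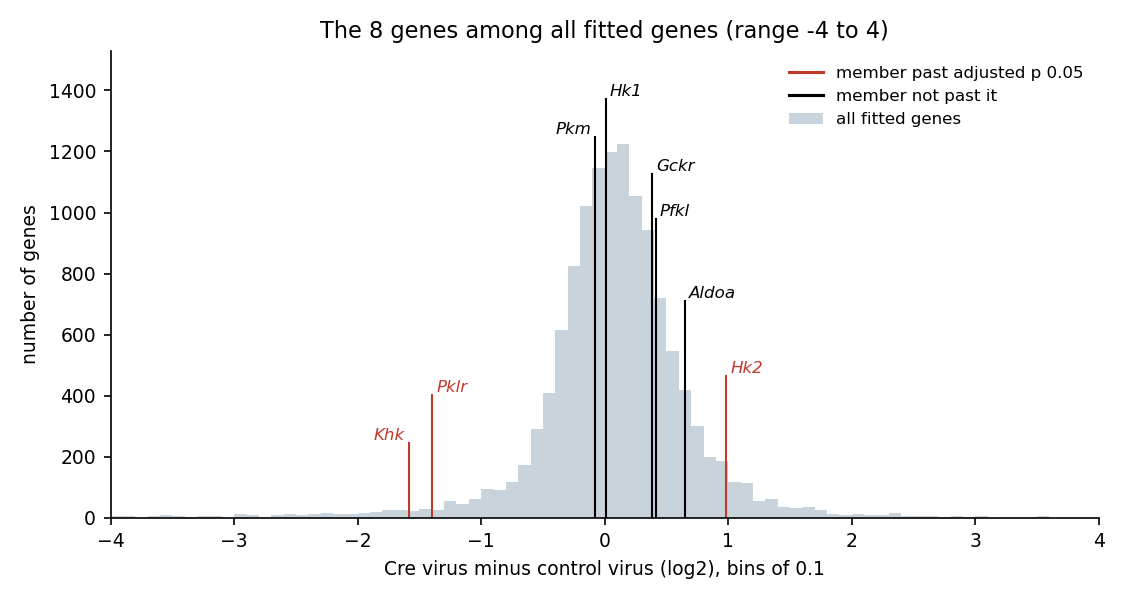
Number of fitted genes (vertical axis) by Cre minus control virus on the log2 scale in bins of 0.1, with the 8 genes as lines whose height has no meaning, red where adjusted p was under 0.05; 67 genes beyond 4 log2 units are not drawn. Khk and Pklr lie in the left tail at -1.59 and -1.39, Hk2 lies at 0.99, and Pkm and Hk1 lie near the middle at -0.08 and 0.01.

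Of 5 fitted genes for liver isozymes and their regulators, Khk and Pklr fell, none rose, and Gckr, Pfkl and Slc2a2 did not pass, with a median of -0.43. By limma's unadjusted p under 0.05, 1 of these 5 was higher and 3 were lower, against 20.4% higher and 10.8% lower of all fitted genes. Of 13 fitted general or fetal isozymes, Hk2, whose control values were under the filter, and Pfkm rose, Aldoc fell and 10 did not pass, with a median of -0.08. On limma's unadjusted p under 0.05, 3 of these 13 were higher and 1 was lower, beside the same shares of all fitted genes. By adjusted p, 6.71% of all fitted genes rose and 5.21% fell, and the difference between the lists was not tested.

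Over all 17 probe sets of the 8 genes, 15 were fitted. Of these, 3 fell (both called readings of Pklr, and Khk), against 3.04% of 24461 probe sets, and 0 rose by limma's adjusted p, against 2.75%. By unadjusted p under 0.05, 5 were higher and 3 lower, against 16.7% higher and 9.34% lower of all fitted probe sets. The higher ones include several Aldoa probe sets, which are not independent readings. By position, 9 of the 17 were above both controls, 6 below both and 2 between them. At gene level 4 of 8 were above both, 2 below both and 2 between, against 49.7% above both and 33.6% below both of all fitted genes. The count above both controls is thus near that of genes in general.

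Other genes listed for glycolysis were mixed. Of 5 fitted, only Tpi1, triosephosphate isomerase, fell: it was at 10.47 in the Cre liver, against 11.55 and 11.35 in the control livers (-0.98 ± 0.13 SE, adjusted p = 0.0235), with 3 of 3 probe sets lower. Triosephosphate isomerase serves fructose as well as glucose, since it interconverts the triose phosphates of both routes. None of the 5 rose by limma's adjusted p, and 1 was higher at an unadjusted p under 0.05. That gene was Pgam1, phosphoglycerate mutase, at 0.57 ± 0.12 SE (adjusted p = 0.0579; 0.039 after quantile normalization), while Pgk1, phosphoglycerate kinase, was at -0.24 ± 0.10 SE (adjusted p = 0.199).

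Downstream of pyruvate kinase, 3 of 15 fitted genes of pyruvate and lactate metabolism rose and 2 fell, against 6.71% and 5.21% of all fitted genes. By limma's unadjusted p under 0.05, 6 of the 15 were higher and 2 lower, against 20.4% and 10.8% of all fitted genes. Pdk4, whose kinase shuts off pyruvate dehydrogenase, was at 9.63 in the Cre liver, against 5.42 and 6.03 in the control livers (3.90 ± 0.30 SE, adjusted p = 0.00717). Slc16a1, the lactate and pyruvate carrier MCT1, was at 10.52 in the Cre liver, against 8.66 and 9.09 in the control livers (1.65 ± 0.22 SE, adjusted p = 0.0232), while its dim second probe set gave 0.22. Pdhb, a subunit of pyruvate dehydrogenase, was at 0.61 ± 0.11 SE (adjusted p = 0.0399; 4 of 9 other settings passed, with adjusted p up to 0.0835). Ldha, the lactate dehydrogenase of muscle and liver, was at 10.40 in the Cre liver, against 11.07 and 11.09 in the control livers, and fell (-0.68 ± 0.10 SE, adjusted p = 0.0292; 0.0688 without an intensity trend). Ldhd, which oxidises D-lactate, was at 8.59 in the Cre liver, against 9.60 and 9.51 in the control livers (-0.97 ± 0.12 SE, adjusted p = 0.0214). Ldhb was at -0.40 ± 0.16 SE and did not pass.

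**Figure D4:**
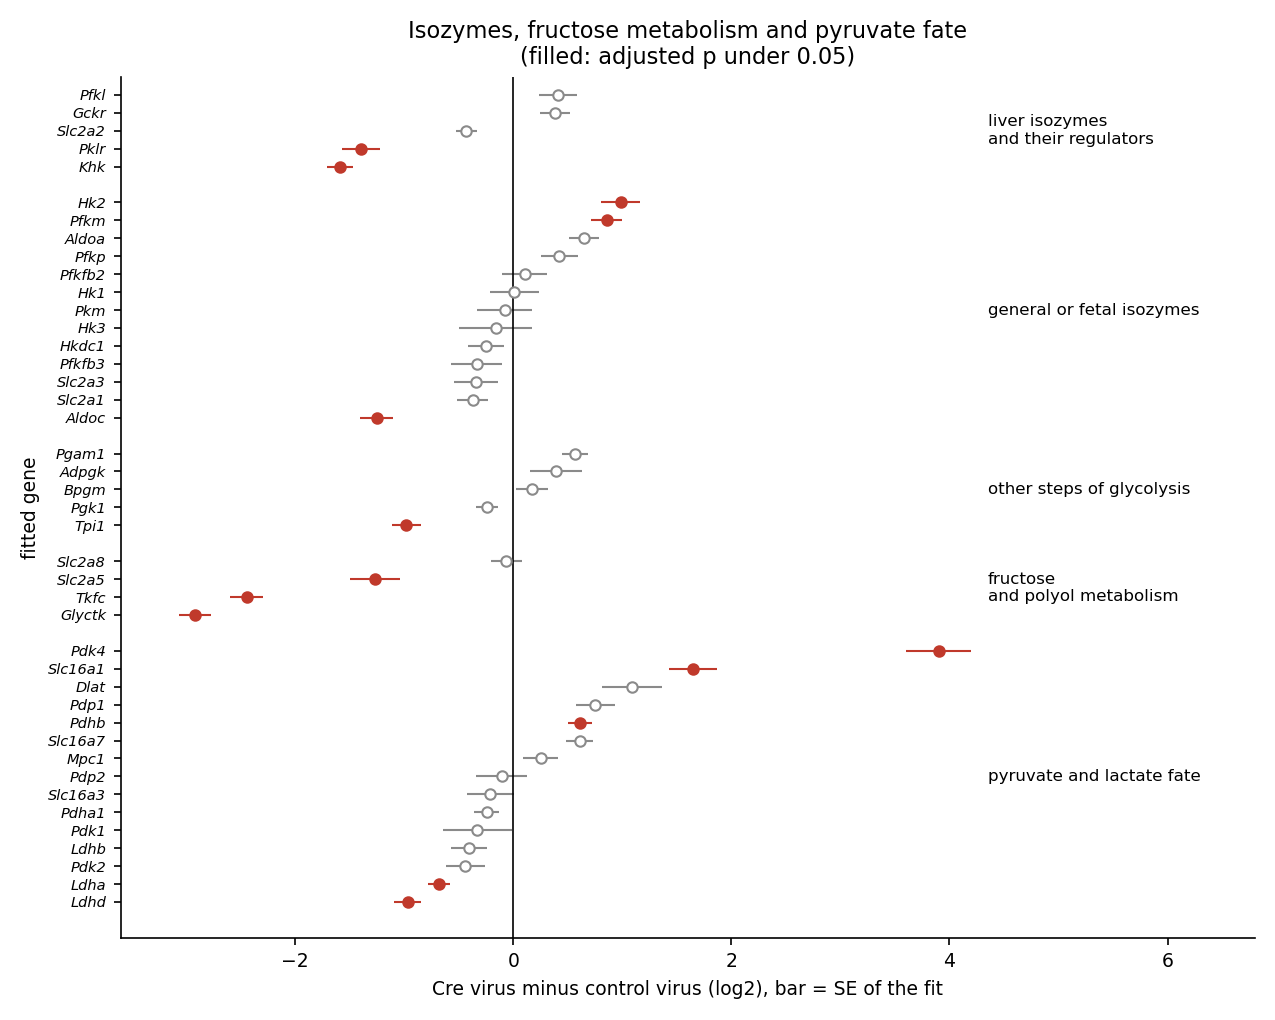
Cre minus control virus on the log2 scale (horizontal axis, bars are the SE of the fit) for each fitted gene of 5 lists, filled red where adjusted p was under 0.05. The lowest values belong to the fructose genes Glyctk and Tkfc at -2.92 and -2.44, and the highest to Pdk4 and Slc16a1 at 3.90 and 1.65.

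Genes that respond to carbohydrate are given because Pklr and Khk are known targets of ChREBP. Mlxipl, which encodes it, was at 9.35 in the Cre liver, against 9.66 and 9.39 in the control livers, and did not pass (-0.18 ± 0.16 SE, limma adjusted p = 0.501). Of 7 fitted genes of this list, Thrsp fell and Txnip rose. Thrsp, a lipogenic target, was at 9.54 in the Cre liver, against 10.44 and 10.48 in the control livers (-0.92 ± 0.11 SE, adjusted p = 0.0184). Txnip, a glucose-induced gene that restrains glucose uptake, was at 9.92 in the Cre liver, against 7.23 and 7.84 in the control livers (2.38 ± 0.29 SE, adjusted p = 0.0188). Genes of the hypoxia-inducible factors, proteins that bind ACGTG, and of their targets gave 1 rise and no fall among 10 fitted genes by limma's adjusted p, with 2 higher and 2 lower at an unadjusted p under 0.05. The rise was Ndrg1, a stress-responsive gene (0.91 ± 0.13 SE, adjusted p = 0.0289).

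Hk2, Pkm, Aldoa and Hk1 are also expressed by liver cells other than hepatocytes and by dividing cells, so those markers are given here. Of 10 Kupffer cell and macrophage markers, 9 were above both controls, against 49.7% of all fitted genes, and Marco rose (1.88 ± 0.16 SE, adjusted p = 0.00970), with a median of 0.62 and a summed linear level of 1878 in the Cre liver, against 1035 and 1555 in the control livers. Of 9 cell cycle genes measured, 7 rose, against 6.71% of all fitted genes, and none fell, with a median of 2.68 and a summed level of 2744 in the Cre liver, against 713 and 657 in the control livers. Of the 7, Mki67, Ccnb2 and Birc5 had both controls under the filter value and entered the fit only through their Cre values, so the sizes of their rises are uncertain. Endothelial markers had a median of 0.26 and stellate cell markers also 0.26, with 0 of 8 and 0 of 9 past limma's adjusted p (2 and 1 higher at an unadjusted p under 0.05). Above both controls were 7 of the 8 endothelial and 7 of the 9 stellate cell markers, also against 49.7% of all fitted genes. Of 5 cholangiocyte markers measured, 2 were fitted. Sox9, a transcription factor gene of bile duct cells, was at 6.69 in the Cre liver, against 3.87 and 4.82 in the control livers, and rose (2.35 ± 0.43 SE, adjusted p = 0.0452), while Epcam did not pass. The summed level of the 5 was 153 in the Cre liver, against 62.2 and 74.4 in the control livers. Sox9 made up most of it in the Cre liver only. Of the 3 markers under the filter, Krt7 and Cftr lay between the controls (0.02 and 0.05), and Krt19 lay below both (-0.16). Of 5 fitted lymphocyte markers 0 passed limma's adjusted p (1 higher at an unadjusted p under 0.05), with a summed level over 7 measured of 175 in the Cre liver, against 160 and 167 in the control livers. Of 2 fitted neutrophil markers 0 passed by either p, with a summed level over 4 measured of 47.9 in the Cre liver, against 54.0 and 45.6 in the control livers. The part of these cells and of cell division in the rise of Hk2 and Pfkm was not tested. Of 6 skeletal muscle markers 4 were below the filter, and the 2 fitted did not pass limma's test. None was above both controls. Their summed level, which includes the markers below the filter, was 87.5 in the Cre liver, against 103 and 87.4 in the control livers. The part of muscle tissue in the rise of the muscle subunit Pfkm was not tested.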

How the data were processed

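Liver RNA was biotin-labelled by in vitro transcription with a 3′ expression kit and read on 1 single-colour array per mouse, per the labels' protocols. The deposited log2 values were made by the authors with Partek 6.5 and RMA, which corrects background, equalises arrays and summarises probe sets, per the submitters' processing notes. No label names the log base; it is read as 2 because values reach 15.05, and all folds depend on this. Values near background are compressed and no detection calls were used. Precision is limited by the number of arrays, and whether the control livers, called biological replicates, came from separate litters is not stated.

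Probe sets were named from the platform annotation where it lists 1 gene (34945), with symbols updated through a RefSeq table of GRCm38.p6. Genes with a mean over the 3 arrays of at least 3.77, the 30th percentile, entered a fit with limma 3.58.1 in R 4.3.3 (lmFit, eBayes with trend, two-sided, Benjamini-Hochberg over 12735 genes), and single-gene probe sets likewise at their own 30th percentile (3.38, 24461 probe sets). The spread comes from the controls alone, with 1 residual degree of freedom, and the fit assumes that a Cre liver varies as much. Figures were drawn with matplotlib 3.10.9. The 8 members and all gene lists were chosen with earlier results of these data known. All 8 members, Hnf4a and any gene of the pathway lists could be named. Linear summed levels add 2 to the power of each value. Some genes of the lists are not reported here.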

Additional observations from a re-analysis of the deposited data

How the results depend on the processing

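Moderation was varied (no trend, robust), as were the filter (none, or the 50th percentile), the scaling (median centring, quantile normalization) and the threshold. The reading of a gene was varied as the average over its probe sets, or leaving out shared or mixed probe sets (_s_at, _x_at, _a_at). In a further setting the brightest probe set of a gene was read from the fit over all probe sets, so dimmer ones did not enter. Leaving out a control gives a value with no test. Khk, Pklr, Gckr and Pfkl kept their direction in every one of these settings that gave them a value. They kept their side of a threshold of 0.05 in every setting with a test. Other thresholds were tried only for the counts of genes. Among dimmer probe sets, read outside these settings, the third of Pfkl lay at -0.44 and the third of Pklr did not pass. Hk2 was no longer past the threshold at 0.99 with no filter, in the fit over all probe sets and without shared or mixed probe sets. Aldoa was past it at 0.65 with robust moderation, 0.66 after median centring and 0.61 after quantile normalization. Hk1 turned to -0.026 after quantile normalization and -0.29 as the mean of its probe sets, and was at -0.17 without control 1 and 0.19 without control 2. Pkm was at -0.29 without control 1 and 0.13 without control 2. Pkm and Hk2 had no value with the filter at the 50th percentile, Aldoa and Pfkl none without shared or mixed probe sets, and Hk1 none in either. The isozyme pair Pklr minus Pkm was -0.86 as the mean of probe sets, Pfkl minus Pfkm -0.82, Pfkl minus Pfkp 0.050 (0.15 without control 1 and -0.16 without control 2), and Slc2a2 minus Slc2a1 -0.18, or 0.045 after quantile normalization. Of other named genes, Pfkp turned to -0.0094 as the mean of its probe sets, and Ptbp1 was at -0.074 without control 1 and 0.045 without control 2. Genes that rose, 855, numbered 446 with no filter, 471 without shared or mixed probe sets, 92 at a threshold of 0.01 and 1780 at 0.1. Genes that fell, 663, numbered 1007 after quantile normalization, 255 at 0.01 and 1003 at 0.1. Median centring and quantile normalization gave a median of all fitted genes of 0.10 and 0.02. No paired analysis was possible because the Cre group was 1 liver.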
